A study of Rattus norvegicus with 8 samples.

Results

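The 37 transcripts described here, from 36 genes, had their highest mid-day level at postnatal day 5 (P5) in the developing rat pineal gland. They were chosen from 16932 RefSeq transcripts by their mid-day levels alone. A transcript was taken if it had 5 FPKM or more at P5 mid-day and if (FPKM + 1) at P5 mid-day was at least 2 times the value in each of the E21, P20 and P40 mid-day libraries. FPKM is an expression level normalised to transcript length and to the number of mapped fragments. The 2 thresholds were met by 51 transcripts (0.301% of 16932), of which 14 were left out by symbol, among them Aanat, Drd4 and a set of choroid plexus genes such as Ttr, Kl and Folr1. The mid-day peak is therefore the way in which the members were found and not a result, and none of it is tested.

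The study sequenced polyadenylated RNA from pooled pineal glands of Sprague-Dawley rats kept in 14 h of light and 10 h of dark. Glands were taken at mid-night (zeitgeber time 19) and mid-day (zeitgeber time 7) at embryonic day 21 (E21), P5, P20 and P40, and each age and time is 1 library, so 8 libraries in all. The mid-night pools held 15 animals at E21, 19 at P5, 10 at P20 and 3 at P40, and the mid-day pools held 13 at E21, 17 at P5, 13 at P20 and 3 at P40. With only 1 pool for any age and time, the difference between P5 and another age at a given time of day has no replicate check.

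The pineal gland turns night into a hormone signal. At night, noradrenaline from sympathetic nerves acts on adrenergic receptors of the pinealocyte, raises cyclic AMP, and through protein kinase A and the factor CREB induces a large set of genes, including those of melatonin synthesis. In the rat the sympathetic fibres reach the gland around birth, and the rhythm in melatonin synthesis matures over the first postnatal weeks, while precursors stop dividing and become pinealocytes. The gland develops from the roof of the third ventricle, near choroid plexus, ependyma and meninges.

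Markers of the pinealocyte were present throughout: 18 or 19 of 20 such genes were at 1 FPKM or more in every library. The number of transcripts at 1 FPKM or more was lowest at P20 mid-night, with 8598, and highest at P5 mid-night, with 9533. Sequencing depth is not given. Judged from the smallest steps among the low FPKM values of short olfactory receptor transcripts, the libraries held 0.41 to 1.0 of the depth of the deepest. Summed FPKM of 87 cytosolic ribosomal protein transcripts was 1113, 721, 489 and 564 in the mid-night libraries of E21, P5, P20 and P40, and 2370, 838, 661 and 693 in the mid-day libraries of the same ages. The E21 mid-day library stood apart in this sum but not in the median of these transcripts, 1.72 FPKM at E21 mid-night and 1.86 FPKM at E21 mid-day.

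The mid-night libraries played no part in the choice and divide the members into groups with different courses. Of the 37 members, 10 were also at least 2 times higher at P5 than at every other age at mid-night, against 0.831% of the 5535 transcripts with 5 FPKM or more at P5 mid-day and 0.986% of all 16932. P5 was the highest of the 4 mid-night ages for 16 of the 37 members, against 28.2% of the 5535 transcripts. E21 was the highest mid-night age for 8 members, P20 for 5 and P40 for 8. Both P5 libraries lay above all 6 others for 15 members, where this held for 6.61% of the 5535. This count also uses the mid-day libraries, where the choice had set P5 above the other ages, so nothing is read from that gap. Across the 37 members the ratio of P5 mid-night to the highest other mid-night library, taken on FPKM + 1, ran from 0.101 for Dusp1 to 11.06 for Htr2c with a median of 0.863, against a median of 0.880 for all 5535. The highest of all 8 libraries was P5 mid-day for 11 members, P5 mid-night for 10, P40 mid-night for 7, P20 mid-night for 5 and E21 mid-night for 4.

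**Figure D1:**
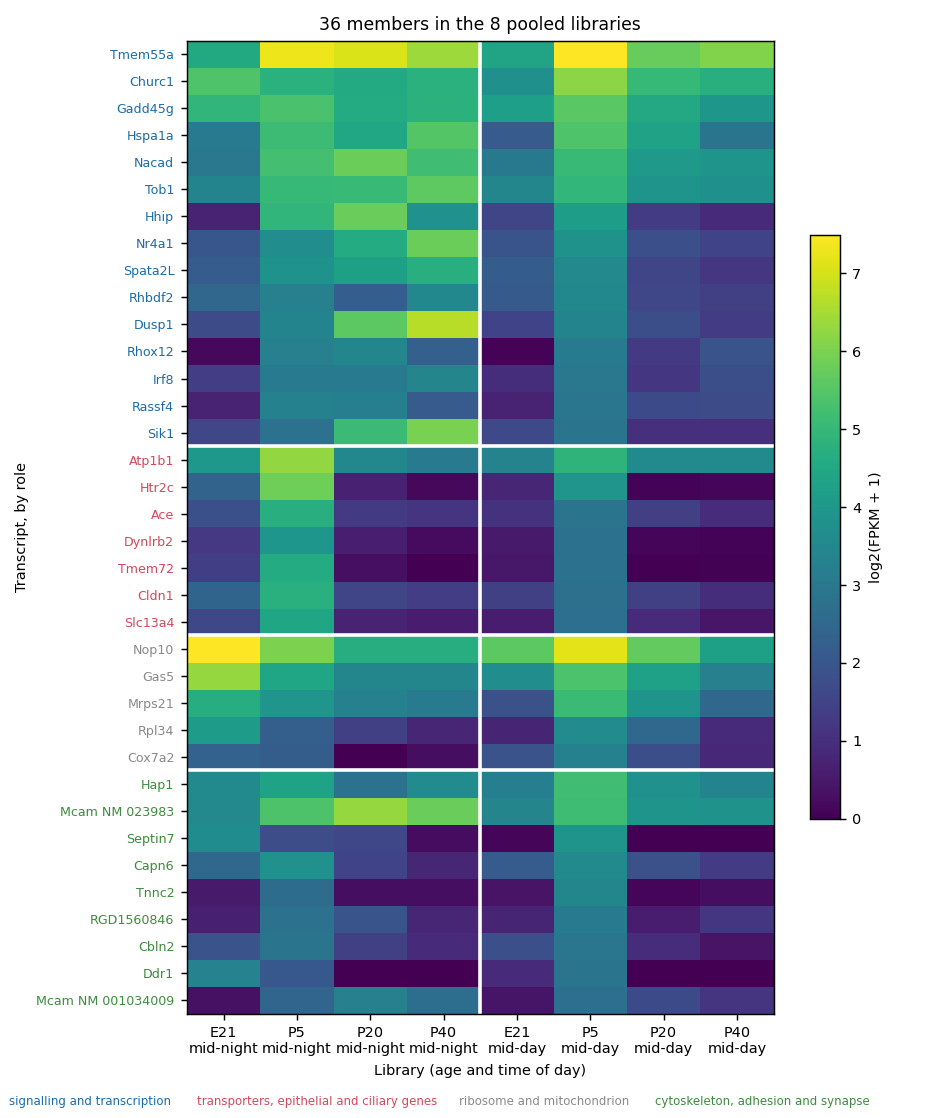
Level of 36 of the 37 members (rows, grouped and coloured by role) in each of the 8 pooled libraries (columns, mid-night left and mid-day right), as log2(FPKM + 1). All rows are high at P5 mid-day by the way they were chosen; at mid-night the transporter and epithelial rows are brightest at P5, many signalling rows at P20 or P40, and the ribosomal rows at E21.

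For description the members were sorted by known role into 15 transcripts of signalling and transcription, 8 of transporters, epithelial junctions and cilia, 5 of ribosome and mitochondrion, and 9 of cytoskeleton, adhesion and synapse. This sorting was made after the values were seen. All 8 in the transporter and epithelial group met the 2-fold criterion at P5 mid-night, and the other 2 that did so were Tnnc2 and Capn6 of the cytoskeletal group. None of the 15 signalling transcripts and none of the 5 ribosomal and mitochondrial transcripts met it. Htr2c, a receptor placed in the transporter and epithelial group, is also in a list of G protein signalling genes. The split between the groups thus depends partly on the sorting, and nothing is read from it. In bulk RNA, a change in the number of cells of one type and a change in RNA per cell cannot be told apart, which applies to every value below.

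**Figure D2:**
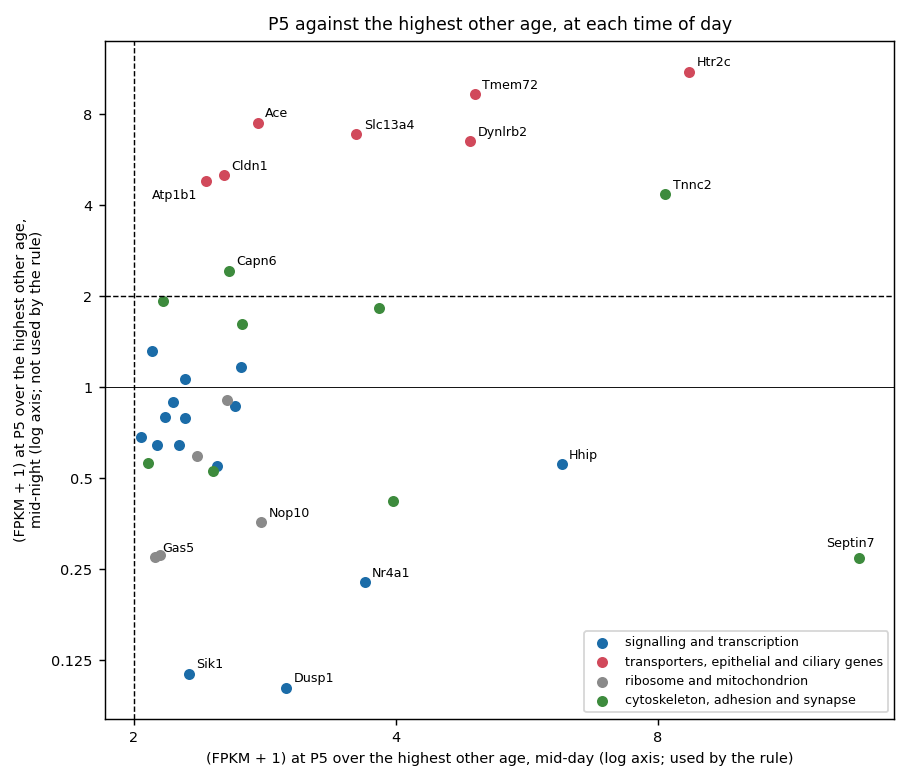
Ratio of (FPKM + 1) at P5 to that of the highest other age, at mid-day (x axis, log scale, used in choosing the members) and at mid-night (y axis, log scale, not used), 1 point for each of 36 members, coloured by role; dashed lines mark 2 and the solid line marks 1. All transporter and epithelial points shown lie above 2 at mid-night, while Dusp1 (0.101) and Sik1 (0.113) lie lowest.

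Most signalling and transcription members were about equally high at both times of day at P5, and 8 of the 15 were at least 2 times higher at mid-night at both P20 and P40. Among all 37 members this held for 10, against 1.61% of the 5535 transcripts; since the mid-day levels at P20 and P40 were capped by the choice, nothing is read from that gap. In the signalling group the ratio of P5 mid-night to P5 mid-day had a median of 0.998 and ran from 0.378 to 1.65. The highest of the 8 libraries was P20 or P40 mid-night for 10 of the 15. Nr4a1, an orphan nuclear receptor that is an immediate early gene, had 2.97, 11.6, 23.1 and 54.9 FPKM at E21, P5, P20 and P40 at mid-night and 2.82, 13.1, 2.56 and 1.85 FPKM at the same ages at mid-day. Its mid-night and mid-day pools were close at E21 and P5 and far apart at P20 and P40. Dusp1, a phosphatase that inactivates MAP kinases, had 2.37, 9.39, 47.4 and 101.6 FPKM at mid-night over the 4 ages and 1.86, 9.41, 2.48 and 1.50 FPKM at mid-day. Sik1, a kinase that restrains the coactivators of CREB, had 2.02, 6.09, 33.7 and 61.8 FPKM at mid-night and 2.17, 6.33, 1.07 and 1.03 FPKM at mid-day. For all 3 genes, E21 and P5 showed nearly the same level at the 2 times of day. The mid-day level at P5, above every other mid-day level by the choice, was below the mid-night levels of P20 and P40. The gap was smallest for Nr4a1 at P20 (13.1 against 23.1 FPKM).

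Hhip, a membrane protein that binds and sequesters Hedgehog ligands, had 0.629, 29.3, 53.5 and 12.8 FPKM at mid-night and 1.95, 17.3, 1.49 and 0.906 FPKM at mid-day, so it was well above its E21 level at P5 at both times. Spata2L had 3.50, 13.2, 18.0 and 25.0 FPKM at mid-night and 3.61, 10.5, 1.98 and 1.26 FPKM at mid-day. Irf8, an interferon regulatory factor best known from myeloid cells, had 1.55, 7.34, 7.29 and 9.52 FPKM at mid-night and 0.987, 6.96, 1.27 and 2.48 FPKM at mid-day. Spata2L was highest at P40 mid-night, whereas Hhip was highest at P20 mid-night and lower at P40 than at P5 there, and Irf8 was at almost the same level at P5 and P20 mid-night. Tob1, an antiproliferative protein, had 9.33, 31.1, 33.0 and 48.9 FPKM at mid-night and 9.88, 30.0, 13.6 and 12.5 FPKM at mid-day. Nacad had 6.99, 37.1, 54.7 and 35.8 FPKM at mid-night and 7.12, 32.6, 15.5 and 13.6 FPKM at mid-day. In Tob1 and Nacad the older mid-day libraries kept more of the P5 level than in Sik1 or Dusp1.

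The rest of this group showed smaller or less regular differences. Tmem55a, a phosphatase of the membrane lipid phosphatidylinositol bisphosphate that is listed as Pip4p2 in RefSeq, was the most abundant member at P5 mid-day, with 22.2, 155, 133 and 82.9 FPKM at mid-night and 19.8, 175, 53.1 and 65.4 FPKM at mid-day. Hspa1a, a stress-induced chaperone, had 7.67, 34.3, 21.6 and 43.4 FPKM at mid-night and 3.44, 42.1, 18.8 and 6.44 FPKM at mid-day; its locus overlaps that of Hspa1b, a near-identical copy, so how reads were divided between the 2 is uncertain. Hspa1b itself had 2.66, 9.02, 13.6 and 17.1 FPKM at mid-night and 1.80, 8.22, 5.93 and 3.77 FPKM at mid-day. The homeobox gene Rhox12 was almost unexpressed at E21, with 0.118, 8.58, 9.73 and 3.88 FPKM at mid-night and 0.0535, 7.43, 1.40 and 2.81 FPKM at mid-day. Rassf4, which carries a Ras-association domain, had 0.669, 8.86, 8.30 and 3.42 FPKM at mid-night and 0.648, 6.62, 2.22 and 2.33 FPKM at mid-day. Both were thus low before birth at either time and high at P5 at either time. Gadd45g, a growth arrest and stress response gene, had 29.5, 39.1, 23.3 and 27.0 FPKM at mid-night and 17.7, 46.9, 21.9 and 14.5 FPKM at mid-day. Rhbdf2, an inactive rhomboid that guides a sheddase to the cell surface, had 4.56, 8.65, 3.68 and 10.2 FPKM at mid-night and 3.34, 10.3, 2.01 and 1.66 FPKM at mid-day. Churc1, a zinc finger protein of early neural development in chick, was the exception: it had 41.9, 26.7, 22.8 and 26.4 FPKM at mid-night and 12.5, 72.2, 31.5 and 25.2 FPKM at mid-day, so its P5 value was high at mid-day alone.

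**Figure D3:**
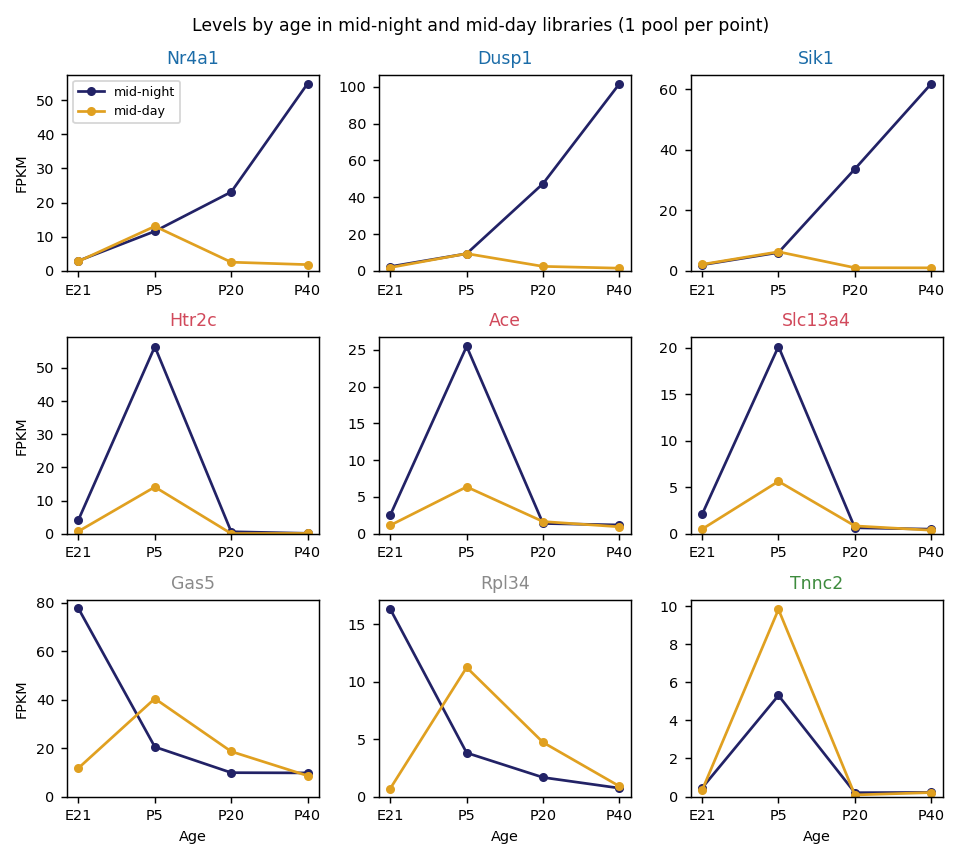
FPKM of 9 members against age (E21, P5, P20, P40), with mid-night in dark blue and mid-day in orange, 1 pooled library per point; y axes differ. Nr4a1, Dusp1 and Sik1 have both lines together at E21 and P5 and apart at P20 and P40; Htr2c, Ace and Slc13a4 peak at P5 at both times and are higher at mid-night there; Gas5 and Rpl34 are highest at E21 mid-night; Tnnc2 peaks at P5 at both times.

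The night difference at P20 and P40 was fitted with limma on log2(FPKM + 1) over the 6 libraries of E21, P20 and P40, with age as a term, a night effect shared by P20 and P40 and one of its own for E21. The choice of members capped their E21, P20 and P40 mid-day levels, which favours a positive night difference, so the fit is given here as a description and nothing about the members is read from its calls. It called 10 transcripts of 9 genes higher at mid-night (27.0% of the 37) and 0 lower, at a Benjamini-Hochberg adjusted p under 0.05, where it called 1.87% of all 9960 transcripts higher and 0.803% lower. The median night difference was 0.47 for the members and -0.11 for all transcripts. An unadjusted p under 0.05 was found for 19 of the 37 members and for 19.6% of all transcripts. On the log2 scale the 10 transcripts differed by 4.58 (Dusp1), 4.51 (Sik1), 3.65 (Hhip), 3.52 (Nr4a1), 3.10 (Spata2L), 1.73 (Irf8), 1.55 (Tob1), 1.54 (Nacad) and, for the 2 transcripts of Mcam, an adhesion molecule of the cytoskeletal group, 2.18 and 1.58. Each was higher at mid-night at both P20 and P40. With no filter on low values, limma called 0 of 13972 transcripts, 1760 of them having an unadjusted p under 0.05, and leaving out a P20 or P40 library leaves no residual degree of freedom. Median centring gave 14 members higher and 1 lower, with 498 higher and 210 lower over all transcripts.

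**Figure D4:**
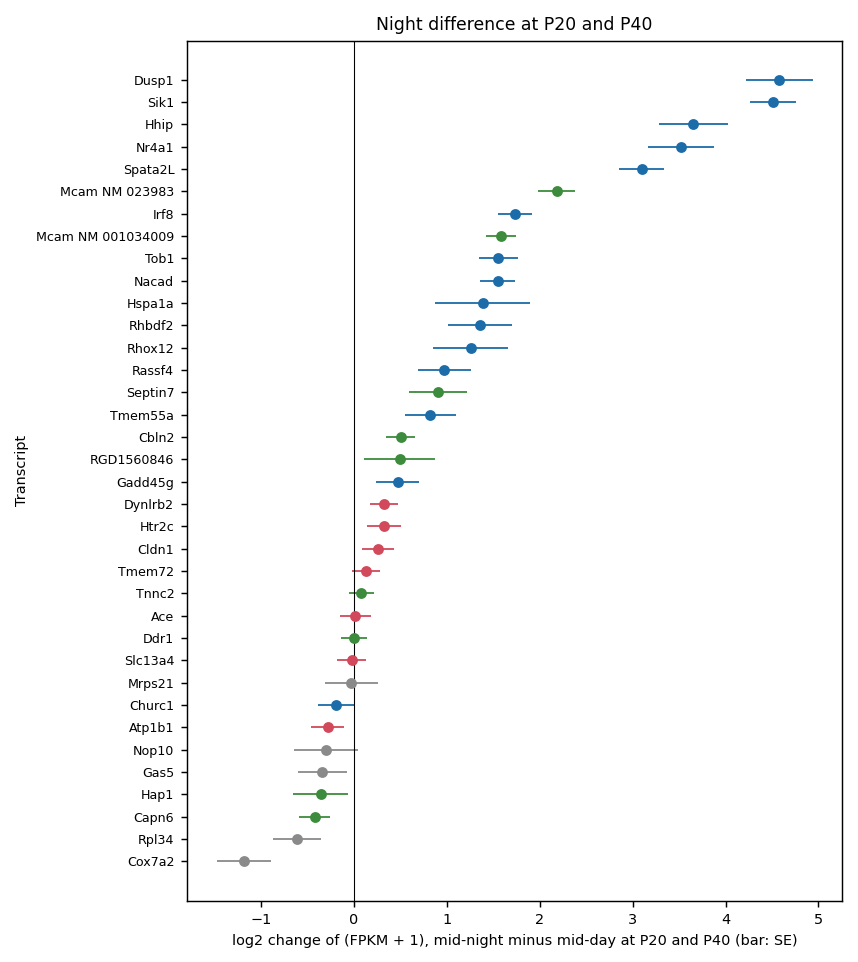
Night difference at P20 and P40 for 36 of the 37 members, as the log2 change of (FPKM + 1), mid-night minus mid-day, with standard error bars from limma; colours give the role as in the plot of levels by library. The 10 highest points run from 1.54 to 4.58, and the transporter and epithelial points lie near 0.

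Other genes of the same classes were compared in the same fit. In a list of immediate early genes, which holds Dusp1 and Nr4a1, 25 were found and 18 tested, of which 4, both members included, were higher at mid-night at P20 and P40 and 0 lower. Among those that are no members, Nr4a3, a relative of Nr4a1, had 0.262, 0.486, 2.56 and 13.2 FPKM at mid-night and 0.171, 0.172, 0.0936 and 0.180 FPKM at mid-day, with no rise at P5. Fos had 2.08, 6.72, 8.61 and 18.9 FPKM at mid-night and 1.17, 8.90, 5.26 and 8.82 FPKM at mid-day, which did not meet the mid-day criterion at P20 or at P40. In a list of heat shock and unfolded protein genes, 4 of 14 were higher at mid-night and 0 lower. Neither list's members other than Dusp1, Nr4a1 and Hspa1a met the thresholds.

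Promoters are shown for 4 genes with high night differences at P20 and P40, all 4 holding the cyclic AMP response element or its short form. CREB is the known route from noradrenaline to gene induction in this gland and binds this element. The sequences are RefSeq promoters on assembly GRCr8, from 250 bases before to 50 bases after the start of transcription, 5′ to 3′ on the strand of the gene. Capitals mark the short response element TGACG or its reverse complement CGTCA. The windows are chr10:17184603-17184902 on the plus strand for Dusp1, chr7:134259888-134260187 on the plus strand for Nr4a1, chr20:9958597-9958896 on the minus strand for Sik1 and chr14:85687648-85687947 on the minus strand for Nacad.
Dusp1: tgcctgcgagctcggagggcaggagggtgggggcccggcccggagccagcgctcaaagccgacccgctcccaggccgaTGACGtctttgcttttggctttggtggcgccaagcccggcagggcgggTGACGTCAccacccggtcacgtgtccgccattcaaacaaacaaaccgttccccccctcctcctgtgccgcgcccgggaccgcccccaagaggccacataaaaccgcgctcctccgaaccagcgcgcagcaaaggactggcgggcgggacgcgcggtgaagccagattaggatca
Nr4a1: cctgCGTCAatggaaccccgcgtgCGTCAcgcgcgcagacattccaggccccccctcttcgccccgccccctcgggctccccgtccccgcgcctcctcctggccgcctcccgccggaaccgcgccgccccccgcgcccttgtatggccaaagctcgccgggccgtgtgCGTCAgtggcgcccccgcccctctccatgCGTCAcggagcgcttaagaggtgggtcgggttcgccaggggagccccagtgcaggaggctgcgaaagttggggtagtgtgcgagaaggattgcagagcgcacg
Sik1: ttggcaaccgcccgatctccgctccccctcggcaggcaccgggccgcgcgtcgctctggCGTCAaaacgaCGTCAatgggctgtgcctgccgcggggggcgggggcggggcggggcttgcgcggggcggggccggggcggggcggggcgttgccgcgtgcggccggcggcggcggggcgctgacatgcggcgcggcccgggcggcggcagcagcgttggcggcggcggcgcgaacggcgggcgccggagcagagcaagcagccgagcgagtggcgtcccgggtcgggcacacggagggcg
Nacad: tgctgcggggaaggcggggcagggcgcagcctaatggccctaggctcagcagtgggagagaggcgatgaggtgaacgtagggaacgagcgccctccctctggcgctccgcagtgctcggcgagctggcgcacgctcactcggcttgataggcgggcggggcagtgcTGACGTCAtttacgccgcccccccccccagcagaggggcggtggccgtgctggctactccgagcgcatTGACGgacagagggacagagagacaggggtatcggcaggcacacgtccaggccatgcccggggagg
The Dusp1 and Nacad windows each hold 1 full palindromic element TGACGTCA, in which TGACG and CGTCA overlap, and the Nr4a1 and Sik1 windows hold short elements only, 4 and 2 of them. Promoters of 32 of the 36 genes were found (34 promoters); Tmem55a, Mcam and Atp1b1 were among those not matched. TGACG or CGTCA stood in 14 of the 34 (41.2%) and in 21.2% of all 33469 promoters of the same length, and TGACGTCA in 3 of the 34 (8.82%; Dusp1, Gas5 and Nacad) and in 1.83% of all. Among the 8 matched promoters of the 9 genes with the highest night differences, 5 held the short element. The 4 shown are among those 5, and the promoters of Hhip, Irf8 and Tob1 held none. The short element also stood in promoters of Cbln2, Churc1, Cox7a2, Gas5, Hap1, Rhox12, Rpl34, Septin7 and Tnnc2, which were not called in the night difference. The letters GGATTA or TAATCC, recognised by the pineal and retinal factor CRX, stood in 4 of the 34 (11.8%; Ace, Mrps21, Nop10 and RGD1560846) and in 7.17% of all. The shares over all promoters were not limited to expressed transcripts, so nothing is read from the gaps. A match of letters is not a measurement of binding.

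The transporter, epithelial and ciliary members were higher at mid-night than at mid-day at P5 itself, and lower at all other ages than in either P5 pool. Their ratio of P5 mid-night to P5 mid-day reached 3.93 with a median of 3.37, and 7 of the 8 (7 of all 37 members) were at least 2 times higher at mid-night, which held for 0.958% of the 5535 transcripts. The serotonin receptor Htr2c, known for its abundance in choroid plexus, had 4.19, 56.4, 0.603 and 0.127 FPKM at E21, P5, P20 and P40 at mid-night and 0.735, 14.1, 0.0514 and 0.0973 FPKM at mid-day. Both P5 pools exceeded every other pool, and the older pools were close to 0. The membrane protein Tmem72 had 1.62, 23.4, 0.227 and 0.00871 FPKM at mid-night and 0.394, 5.87, 0.00 and 0.0317 FPKM at mid-day. Slc13a4, a sodium and sulfate cotransporter, had 2.08, 20.1, 0.642 and 0.492 FPKM at mid-night and 0.494, 5.63, 0.841 and 0.378 FPKM at mid-day. Ace, the angiotensin-converting enzyme, had 2.53, 25.5, 1.40 and 1.19 FPKM at mid-night and 1.15, 6.37, 1.66 and 0.943 FPKM at mid-day. In all 8 members of this group the mid-night pool of E21 was also above its mid-day pool. The same held for 10 of 15 signalling, 5 of 5 ribosomal and mitochondrial and 7 of 9 cytoskeletal members. The choice had capped the E21 mid-day levels, so nothing is read from this direction.

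Cldn1, a tight junction claudin, had 4.34, 25.8, 1.96 and 1.55 FPKM at mid-night and 1.69, 5.81, 1.68 and 0.981 FPKM at mid-day. Dynlrb2, a dynein light chain, had 1.35, 14.3, 0.538 and 0.169 FPKM at mid-night and 0.455, 6.09, 0.0903 and 0.0525 FPKM at mid-day. Atp1b1, the beta subunit of the sodium pump, had 15.1, 76.0, 10.2 and 7.70 FPKM at mid-night and 9.23, 28.1, 11.0 and 11.0 FPKM at mid-day. Atp1b1 still held 7.70 FPKM or more in the P20 and P40 pools at either time, where Cldn1 and Dynlrb2 were below 2 FPKM.

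The summed level of choroid plexus markers was also highest at P5 at mid-night. Of a list of 43 such genes, 40 were found; 4 are members (Ace, Htr2c, Slc13a4 and Tmem72), 12 met the mid-day thresholds, and 27 had 5 FPKM or more and the 2-fold criterion at P5 mid-night. The summed FPKM of the 36 that are no members, without Ttr, was 597, 1631, 441 and 515 in the mid-night libraries of E21, P5, P20 and P40, and 509, 707, 467 and 463 in the mid-day libraries. Of the 36, 8 met the mid-day thresholds themselves and were left out by symbol. The mid-day course of the list is thus partly set by the criterion, and nothing is read from its peak. Of these 36 genes, 27, 35, 20 and 22 were at 1 FPKM or more at mid-night and 21, 33, 20 and 20 at mid-day. A list of ependymal and motile cilia genes, with 19 found and no member, summed to 39.4, 81.6, 12.4 and 13.0 FPKM at mid-night and 52.7, 35.5, 13.1 and 18.2 FPKM at mid-day. The part of such cells in the P5 values of these 8 members was not tested.

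The ribosomal and mitochondrial members were lower at mid-night than at mid-day at P5; Nop10, Gas5 and Rpl34 were highest of all libraries at E21 mid-night, and Mrps21 and Cox7a2 at P5 mid-day. Their ratio of P5 mid-night to P5 mid-day ran from 0.392 to 0.519, and 4 of the 5 were at or below 0.5 on the FPKM + 1 scale (6 of all 37 members), which held for 0.307% of the 5535 transcripts. Members were chosen for a high P5 mid-day level, which favours a low ratio, so nothing is read from that gap. All 5 were higher at mid-night than at mid-day at E21; at least 2 times higher there were 9 of the 37 members, against 1.07% of the 5535 transcripts, in a ratio whose mid-day part the choice had capped. Nop10, a protein of the small nucleolar ribonucleoproteins that modify ribosomal RNA, had 178, 63.1, 24.3 and 24.3 FPKM at mid-night and 47.7, 142, 50.2 and 18.0 FPKM at mid-day. Gas5, a non-coding host gene of small nucleolar RNAs, had 77.7, 20.5, 9.85 and 9.76 FPKM at mid-night and 11.8, 40.5, 18.6 and 8.59 FPKM at mid-day. Mrps21, of the mitochondrial ribosome, had 24.4, 14.0, 8.72 and 7.27 FPKM at mid-night and 2.66, 33.6, 13.6 and 4.73 FPKM at mid-day. At mid-night these 3 were highest at E21, and at mid-day their E21 pools were below their P5 pools. Rpl34, of the cytosolic ribosome, had 16.3, 3.80, 1.66 and 0.732 FPKM at mid-night and 0.696, 11.2, 4.72 and 0.894 FPKM at mid-day. Cox7a2, a subunit of cytochrome c oxidase, had 4.10, 3.62, 0.00 and 0.207 FPKM at mid-night and 2.80, 8.73, 2.45 and 0.815 FPKM at mid-day. The summed FPKM of ribosomal protein transcripts at E21 was lower at mid-night (1113) than at mid-day (2370). Their median was nearly equal at the 2 times, 1.72 FPKM at mid-night and 1.86 FPKM at mid-day.

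These 5 belong to 11 members whose P5 mid-day level was not 2 times the E21 mid-night level; the others were Churc1, Gadd45g, Atp1b1, Septin7, Ddr1 and Cldn1. Had the criterion included the E21 mid-night library, 26 members would remain. Of the 5, 4 span less than 5 kb, and so do 10 of the 37 members (27.0%), where 13.8% of the 5535 transcripts do. Whether gene length plays a part in these values was not tested.

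The cytoskeletal, adhesion and synaptic members were the most varied. Tnnc2, the troponin C of fast skeletal muscle, had 0.452, 5.31, 0.202 and 0.215 FPKM at mid-night and 0.326, 9.83, 0.0847 and 0.209 FPKM at mid-day, so both P5 pools stood above all 6 others. Its 35 companions in a list of skeletal muscle genes had a summed FPKM of 14.5, 36.3, 54.7 and 61.9 at mid-night and 14.5, 41.1, 72.7 and 57.0 at mid-day, highest at P20 or P40. Tnni2 and Mb of that list were listed at 0 in every library. In this file some genes that every cell uses are also near 0, such as the chaperone Hspa8 with at most 0.231 FPKM, so a value of 0 can be a failed estimate and the part of muscle cells in the Tnnc2 values was not tested. Capn6, a calpain that lacks protease activity and binds microtubules, had 4.74, 12.9, 1.83 and 0.737 FPKM at mid-night and 3.55, 10.7, 2.59 and 1.47 FPKM at mid-day. Cbln2, a secreted organiser of synapses, had 2.78, 6.29, 1.66 and 0.894 FPKM at mid-night and 2.56, 6.70, 0.922 and 0.310 FPKM at mid-day. Capn6 and Cbln2 had nearly equal levels at the 2 times of day at both E21 and P5. RGD1560846, listed as Tex26 in RefSeq, had 0.570, 6.04, 2.85 and 0.752 FPKM at mid-night and 0.710, 7.66, 0.512 and 1.26 FPKM at mid-day.

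The genes Septin7, Ddr1, Hap1 and Mcam have 2 transcripts each in the table, and for 3 of them the sum of the transcripts no longer met the mid-day criterion. Septin7, a filament-forming GTPase, has the member transcript NM_022616, with 11.5, 2.40, 1.99 and 0.180 FPKM at mid-night and 0.0669, 13.5, 0.00365 and 0.00866 FPKM at mid-day. Its other transcript had 5.18, 10.6, 8.89 and 11.0 FPKM at mid-night and 21.7, 0.000753, 8.86 and 14.5 FPKM at mid-day, near 0 in the P5 mid-day library where the member was high. The sum of the 2 Septin7 transcripts was 16.7, 13.0, 10.9 and 11.2 FPKM at mid-night and 21.7, 13.5, 8.86 and 14.5 FPKM at mid-day, with no peak at P5. Ddr1, a collagen receptor with tyrosine kinase activity, behaved alike: its member had 8.998, 3.21, 0.00154 and 0.000110 FPKM at mid-night and 0.861, 6.39, 0.00174 and 0.000214 FPKM at mid-day. The Ddr1 sum was 11.6, 7.36, 2.73 and 3.99 FPKM at mid-night and 12.001, 7.02, 4.92 and 5.61 FPKM at mid-day, highest at E21 at both times. For Hap1, a huntingtin-associated protein of vesicle transport, the member had 11.0, 18.8, 6.04 and 11.2 FPKM at mid-night and 8.36, 35.5, 12.7 and 9.36 FPKM at mid-day, and the sum of its 2 transcripts came to 1.99 times the highest other mid-day age, just short of 2. Septin7 had held the largest mid-day ratio of all members, 13.6. Mcam remained in the set when summed, at 2.48 times, and summing the transcripts of each symbol left 33 of the 36 genes. The sum of Mcam was 10.7, 45.2, 87.1 and 59.3 FPKM at mid-night and 9.88, 40.5, 15.7 and 14.7 FPKM at mid-day.

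**Figure D5:**
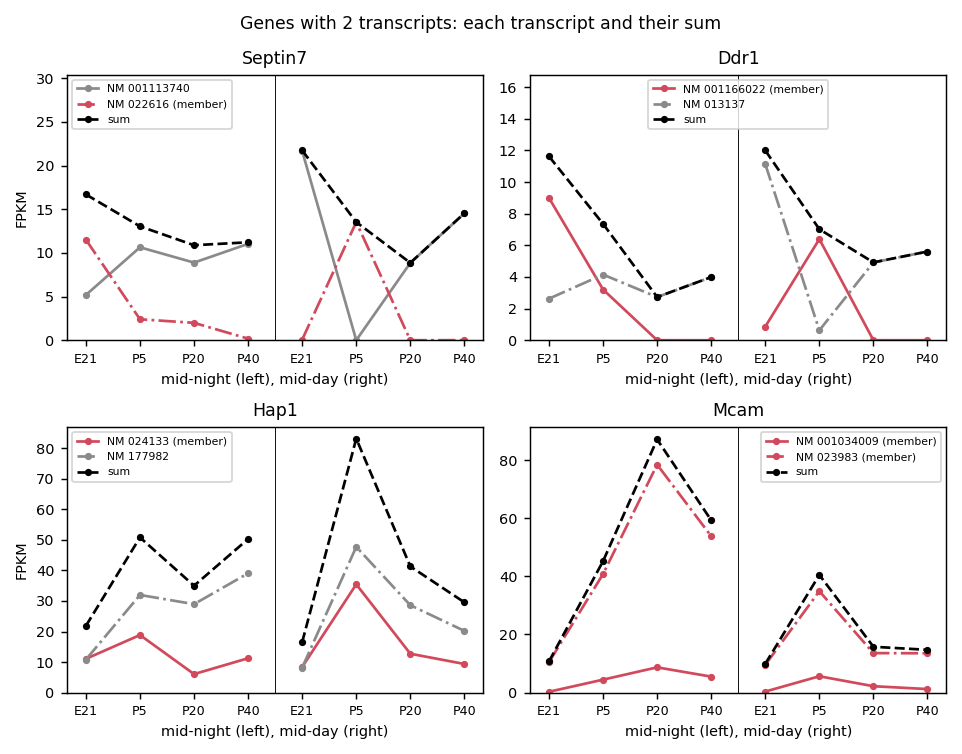
FPKM of each transcript and of their sum (dashed black) against age for Septin7, Ddr1, Hap1 and Mcam, mid-night in the left panel of each plot and mid-day in the right; red lines are members and grey lines are not. For Septin7 and Ddr1 the 2 transcripts trade places between libraries and the sum has no peak at P5 mid-day; the Hap1 and Mcam sums are highest of the mid-day ages at P5.

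Between the fetus and older ages, the members did not move as one. In the limma fit with age and time of day over the 6 libraries without P5, 6 of the 37 were higher at P40 than at E21 (16.2%) and 8 lower (21.6%), where 15.0% and 25.4% of all 9960 transcripts were; in this fit the shares are near the background and are no result about the members. Those higher were Rhox12 (1.99 ± 0.48 on the log2 scale, adjusted p = 0.019 by limma), Tmem55a (1.76 ± 0.31, 0.0061), Mcam NM_001034009 (1.54 ± 0.42, 0.028), Nacad (1.53 ± 0.40, 0.026), Irf8 (1.43 ± 0.36, 0.023) and Rassf4 (1.21 ± 0.36, 0.037). Those lower included Nop10 (-2.09 ± 0.60, 0.034), Cox7a2 (-1.57 ± 0.47, 0.038), Capn6 (-1.30 ± 0.25, 0.0084) and Cbln2 (-1.22 ± 0.20, 0.0046). The other 4 lower calls, Ddr1, Htr2c, Tmem72 and Dynlrb2, entered the fit only because the P5 libraries, where they are high, carried them past the filter, so no p is given for them. With the filter set on the 6 libraries without P5, 31 members were tested and 6 were higher and 5 lower. The median change was 0.06 for members and -0.18 for all transcripts. Leaving out the E21 mid-day library gave 29 calls among the members (78.4%, against 36.2% of all transcripts), leaving out E21 mid-night 6 (16.2%, against 33.3%) and leaving out P40 mid-night 4 (10.8%, against 20.9%), so the members' share depends on which libraries are in the fit; the E21 and P40 mid-day levels were also capped by the choice.

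At P20 against E21, 7 members were higher (18.9%, against 11.6% of all) and 4 lower (10.8%, against 25.4%). The choice capped the E21 and P20 mid-day levels, so nothing about the members is read from these shares. Higher were Rhox12, both Mcam transcripts, Tmem55a, Nacad, Hspa1a and Rassf4, with log2 changes from 1.63 to 2.23. Lower was Cbln2, by -0.70 on the log2 scale, and the other 3 lower calls, Ddr1, Htr2c and Tmem72, again passed the filter only through the P5 libraries. With the filter set on the 6 libraries without P5, 7 members were higher and 1 lower. The median change was -0.02 for members and -0.23 for all transcripts. Under quantile normalization 7 members were higher and 0 lower, and under median centring 6 were higher and 0 lower. Without E21 mid-day 25 members were called (67.6%, against 32.5% of all transcripts), and without P20 mid-night 3 (8.11%, against 15.3%).

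The mid-night libraries alone, set as P20 and P40 against E21 and P5, gave a comparison with no library that the choice used. By limma, 0 of the 37 members passed an adjusted p of 0.05. An unadjusted p under 0.05 was found for 19 of the 37, where 31.0% of all transcripts had one. Of all 9960 transcripts, 0.0201% were higher and 0.0301% lower. The members nearest to the threshold were Sik1 (3.34 ± 0.49 on the log2 scale, adjusted p = 0.052 by limma, higher in both older pools) and Cox7a2 (-2.14 ± 0.24, adjusted p = 0.052, lower in both). Dusp1 (3.57 ± 0.62, adjusted p = 0.058 by limma) came next among members that pass the filter without the P5 libraries. The Ddr1 transcript (-2.70 ± 0.43) passed the filter only through those libraries, so no p is given for it. Without E21 mid-night 16 members were called (43.2%, against 6.96% of all transcripts) and without P5 mid-night 26 (70.3%, against 28.7%). The 4 libraries leave 2 residual degrees of freedom.

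The edges of the set were not sharp. Just inside the 2-fold limit at mid-day stood Nacad at 2.04, Mcam NM_001034009 at 2.08, Gadd45g at 2.10, Gas5 at 2.11 and Tob1 at 2.13. Just outside it stood, among others, Pde8b at 1.99, Fam161a at 1.99, Slc2a6 at 1.96 and Irs2 at 1.96. Just inside the level of 5 FPKM at P5 mid-day were Mcam NM_001034009 at 5.60, Slc13a4 at 5.63, Cldn1 at 5.81, Tmem72 at 5.87 and Dynlrb2 at 6.09 FPKM, and just outside it were, among others, Cthrc1 at 4.94, RGD1564114 at 4.77, Rgs16 at 4.77 and Angptl4 at 4.72 FPKM. The members lie on 17 chromosomes, with 4 of the 37 on the X chromosome, where 3.20% of the 5535 transcripts lie. All 37 passed the filter of 1 FPKM in 2 libraries, 6 of them (Htr2c, Tnnc2, Ddr1, Dynlrb2, Tmem72 and Slc13a4) only through the P5 libraries.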

How the data were processed

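Values are FPKM per RefSeq transcript as deposited by the authors for each of 8 libraries; TopHat 1.3.1, Cufflinks 1.2.0 and genome build rn4 are named in the submitters' processing notes. Each library's own file held the same values as the table of the whole series. Filters and scaling between libraries beyond FPKM are not given in the sources used here. Libraries were made from polyadenylated RNA with random primers, per the labels' protocols, and the lane of each is not given.

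FPKM were analysed as log2(FPKM + 1) without further scaling, so that a fold change understates the change of low transcripts. Transcripts with 1 FPKM or more in 2 of the 8 libraries were tested (9960 in number). The tool was limma 3.58.1 (R 4.3.3), with a mean-variance trend, two-sided, and Benjamini-Hochberg adjustment over all; the threshold was an adjusted p of 0.05. Both P5 libraries were left out of the fits of age (2 residual degrees of freedom) and of night (1), except in the added fit of the mid-night libraries alone. Pools are not replicates, so p-values rest on the spread left after these terms. The script was tested on simulated data. Python 3.11.15, pandas 2.3.3 and matplotlib 3.10.9 made tables and plots.

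The members and gene lists were chosen with earlier results of these data known; the roles, the mid-night fit, the sums of transcripts, the criterion with E21 mid-night, the filter without P5 and the difference in night effects were chosen after the values were seen. Members were named by rank of level, ratios and tests, and by nearness to a threshold; a planned likeness over the 4 mid-night libraries was not computed, as 4 points are too few, and other genes named were picked after their values were seen. All 37 members were matched by gene ID to RefSeq; the symbol of Septin7, which the file holds as a date (24 symbols are dates), was taken from there. A member, which stays in the counts, and some transcripts next to a threshold are not reported here by name.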

Additional observations from a re-analysis of the deposited data

Results flagged for a closer look

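In the limma fit over the 6 libraries without P5, the night difference of Sik1 at P20 and P40 exceeded that at E21 by 4.58 ± 0.43 on the log2 scale (adjusted p = 0.047 over 9960 transcripts), a difference between ages in the same contrast. Sik1 had 33.7 FPKM at mid-night and 1.07 FPKM at mid-day at P20, 61.8 FPKM at mid-night and 1.03 FPKM at mid-day at P40, and 2.02 FPKM at mid-night and 2.17 FPKM at mid-day at E21. The 3 mid-day levels were used in choosing Sik1 and the fit has 1 residual degree of freedom, so the value is a description and supports nothing further. In this comparison 7 transcripts of all 9960 were higher and 2 lower, and no other member passed. Among members that pass the filter without the P5 libraries, the nearest to the threshold were Rpl34 (-3.97 ± 0.45, adjusted p = 0.074 by limma), Spata2L (3.13 ± 0.42, 0.091), Dusp1 (4.34 ± 0.62, 0.096) and Hhip (4.51 ± 0.64, 0.096). These do not share 1 direction. The Ddr1 transcript (-2.43 ± 0.25) passed the filter only through the P5 libraries, so no p is given for it.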

How the results depend on the processing

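Single-transcript repeats were made only for the members called at P40 or P20 against E21 or in the night difference, and none of those changed direction: 146 repeats kept and 59 lost the call at P40, 100 kept and 62 lost it at P20, and 90 kept and 10 lost it for the night difference. Without a filter the calls numbered 4 at P40, 2 at P20 and 0 for the night difference, against 14, 11 and 10. The share called of all transcripts fell as well, from 40.4% to 23.3% at P40, from 37% to 19.3% at P20 and from 2.67% to 0% for the night difference. At P20, a pseudocount of 5 gave 6 calls, a filter at 5 FPKM 7, quantile normalization 7 and median centring 6. The share called of all transcripts in these 4 settings was 35.6%, 36.7%, 33.1% and 31.5%. No paired analysis was possible because the libraries are single pools, and ages served as the block for time of day. With no term for time of day (no replicate block) the calls numbered 6 at P40 and 4 at P20, with 35.8% and 31.7% of all transcripts called. Leaving out 1 library gave 4 to 29 calls at P40, 3 to 25 at P20, 10 in each case for the night difference (E21 libraries only, as no fit is left without a P20 or P40 library), 0 to 26 in the mid-night libraries alone and 10 to 14 members at 2 times or more at P5 mid-night. The mid-night libraries alone gave 3 calls with a pseudocount of 0.1 (2.79% of all transcripts called) and 1 with a filter at 5 FPKM (1.58%). Of the 21 members with 10 FPKM or more at P5 mid-day, 4 met the 2-fold criterion at P5 mid-night, against 10 of all 37. The share of all transcripts at that level is not given here, so nothing is read from this count. Scaling moved the split over all transcripts: at P40 against E21, 1496 were higher and 2530 lower, against 1777 and 1985 after quantile normalization and 1994 and 1787 after median centring; at P20 against E21, 1158 and 2530, against 1569 and 1724 and 1636 and 1506; for the night difference, 186 and 80, against 367 and 178 and 498 and 210. Where no construction shows it, the cause was not tested. The unknown depth limits low values.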
